A study of Mus musculus with 3 samples.

Results

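The genes described here encode the receptor chains and the signal path that interleukin-6 and its relatives use in T cells, namely *Il6st*, *Il6ra*, *Il27ra*, *Stat3* and *Socs3*. They were chosen by name, as 5 of the 25759 genes listed for each library. *Il6st* encodes gp130, the chain that the cytokines of this family share to pass the signal on, while *Il6ra* encodes the chain that binds interleukin-6 and *Il27ra* the chain that pairs with gp130 for interleukin-27. Janus kinases bound to these chains phosphorylate STAT3, which turns on genes in the nucleus, and SOCS3, itself a STAT3 target, binds gp130 and shuts the receptor off. In follicular T cells this path is known for its part in helper cell differentiation, and T follicular regulatory (TFR) cells, which are Foxp3-expressing regulators of the germinal centre, carry the same receptors.

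RNA-seq was run on TFR cells of 3 genotypes with 1 library per genotype. The cells were taken on day 10 from spleen and mesenteric lymph nodes of mice given NP-KLH in alum and boosted on day 7, with a gate on CD4, CXCR5, the GFP reporter and high GITR and against the B cell marker B220. The N library was labelled NFATc1-deficient (Nfatc1fl/fl.Prdm1gfp/+.FIC), the αA library NFATc1/αA-overexpressing (Nfatc1caaA.Prdm1gfp/+.FIC) and the PαA library NFATc1/αA-overexpressing and Blimp-1-deficient (Nfatc1caaA.Prdm1gfp/fl.FIC). All 3 genotypes share FIC, the Cre expressed from the *Foxp3* locus, by which deletion and overexpression are limited to cells that have expressed *Foxp3*, and all 3 carry 1 *Prdm1* allele with GFP, the other being unaltered in N and αA and floxed in PαA. Age and the number of mice per library are not given in the sources used here. There were no replicates, so the libraries and not the genotypes are compared, no test was possible, and the 95% intervals below cover counting error only.

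The library totals lay between 25465829 and 29726219 reads. The targeted genes were looked at first. *Nfatc1* read 63.6 RPKM (exon reads scaled by exon length and library total) in N, 62.9 in αA and 32.4 in PαA, which goes against the labels of deficiency and overexpression, although reads outside the deleted exons do not test a deletion. *Prdm1*, which encodes Blimp-1, read 25.6, 24.9 and 10.0 RPKM in N, αA and PαA. The names N, αA and PαA therefore stand for labels. Of the 10 markers of TFR cells and of the sort, *Foxp3*, *Cxcr5* and *Cd4* among them, all 10 passed an RPKM of 5 in at least 1 library. Their summed RPKM was 2073 in N, 1913 in αA and 1291 in PαA. All 10 were lower in PαA than in αA. *Foxp3*, *Tnfrsf18*, *Ctla4* and *Pdcd1* were past 2-fold lower in PαA than in N, beside 7.77% of genes above that RPKM. These 4 calls rest on the RPKM scaling. With TMM factors, another scaling of the libraries, the median log2 ratio of the 10 markers for PαA against N went from -0.79 to -0.56. On that scaling 8 of the 10 were below 0. *Foxp3* read 32.7, 20.9 and 15.3 RPKM in N, αA and PαA, and *Cxcr5* 48.3, 81.3 and 47.6. The part of these differences in the results below was not tested.

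The regulatory sequence in front of *Il6st* and *Socs3* is shown because NFATc1 and Blimp-1, the factors changed in these mice, and STAT3 are DNA-binding proteins, and these are the genes whose levels in αA stood highest against N. The sequences are RefSeq windows on GRCm38.p6 from 250 bases before to 50 bases after the start, available for 4 of the 5 genes, and read 5′ to 3′ on the strand of the gene. Capitals mark the letters GGAAAG on either strand, which join the core of NFAT sites (GGAAA) to the core of Blimp-1 sites (GAAAG), and TTCNNNGAA, the palindrome of STAT sites. The *Il6st* window is chr13:112463820-112464119 on the plus strand and the *Socs3* window chr11:117969317-117969616 on the minus strand.
Il6st: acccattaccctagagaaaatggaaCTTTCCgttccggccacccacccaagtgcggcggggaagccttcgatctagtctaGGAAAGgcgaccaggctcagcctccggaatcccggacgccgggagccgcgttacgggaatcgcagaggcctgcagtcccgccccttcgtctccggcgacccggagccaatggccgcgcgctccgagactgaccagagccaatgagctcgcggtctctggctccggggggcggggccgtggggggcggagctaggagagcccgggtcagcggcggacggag
Socs3: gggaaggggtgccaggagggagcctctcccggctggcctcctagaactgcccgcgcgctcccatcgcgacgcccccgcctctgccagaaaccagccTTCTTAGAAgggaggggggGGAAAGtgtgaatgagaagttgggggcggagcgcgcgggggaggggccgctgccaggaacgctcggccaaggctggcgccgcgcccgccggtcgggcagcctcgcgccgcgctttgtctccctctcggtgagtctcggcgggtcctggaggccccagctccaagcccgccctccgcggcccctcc

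The *Il6st* window held GGAAAG 2 times, with first bases 225 and 170 bases before the start, and no TTCNNNGAA. In the *Socs3* window GGAAAG stood once, 135 bases before the start, and a TTCNNNGAA match, TTCTTAGAA, began 154 bases before it. The *Socs3* start in RefSeq lies inside the gene as the reference annotation draws it. Each joined match also holds both cores. The *Il6ra* window (chr3:89913147-89913446, minus strand) held GAAAG once, 117 bases before the start, and none of the others, and the *Stat3* window (chr11:100939491-100939790, minus strand) held none. Such letters are common. Of 32817 windows of the same length, GGAAA stood in 61.3%, GAAAG in 57.3%, GGAAAG in 26.6% and TTCNNNGAA in 8.29%. A match describes the letters only, and no binding was measured in these libraries.

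The clearest difference among the 5 genes was in *Il6st*, the shared chain, which was 2.44-fold higher in αA than in N and 2.88-fold lower in PαA than in αA. *Socs3*, the inhibitor, was on exon reads also higher in αA than in N, by 1.54-fold, and stayed above N in PαA. *Il27ra* and *Stat3* were highest in N and lowest in PαA, and *Il6ra* differed between N and αA by less than its counting interval and was lowest in PαA.

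*Il6st* (ENSMUSG00000021756, GRCm38 chromosome 13, 112464070 to 112510086) was covered by 2259, 5059 and 1641 exon reads in the N, αA and PαA libraries. Per length these were 6.85 RPKM (6.57 to 7.14), 16.7 (16.3 to 17.2) and 5.81 (5.53 to 6.09), so that αA stood apart and the N and PαA intervals lay close together without overlapping. Among the 7017 expressed genes, those whose RPKM exceeded 5 in any library, the level of *Il6st* moved from percentile 16.6 in N to 56.7 in αA and 18.9 in PαA. The study picked *Il6st* from these libraries, so its ratios are a description and not independent evidence.

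*Il6ra* (ENSMUSG00000027947, chromosome 3, 89864059 to 89913196) was covered by 1589, 1493 and 1025 exon reads. This gave 6.19 RPKM (5.89 to 6.50) in N, 6.34 (6.02 to 6.67) in αA and 4.66 (4.38 to 4.95) in PαA. The N and αA intervals overlapped and the PαA interval lay below both.

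*Il27ra* (ENSMUSG00000005465, chromosome 8, 84030294 to 84042589) was the most abundant of the 5 genes per length in all 3 libraries, with 8739, 6910 and 4744 exon reads in the same order. Its level was 110 RPKM (108 to 113) in N, 95.2 (93.0 to 97.5) in αA and 69.9 (68.0 to 71.9) in PαA. None of these intervals overlapped. The gene overlaps *Palm3* on the other strand, which had at most 24 exon reads in a library, and it is not stated whether reads were counted by strand.

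*Stat3* (ENSMUSG00000004040, chromosome 11, 100885098 to 100939540), the transcription factor at the end of the path, had 7581, 5878 and 4299 exon reads. Its level was 40.9 RPKM (40.0 to 41.9) in N, 34.6 (33.8 to 35.5) in αA and 27.1 (26.3 to 27.9) in PαA, in the same order as *Il27ra* and again with no overlap. *Stat3* overlaps *Stat5a* on the other strand, to which 2624, 1966 and 1386 exon reads were assigned, and reads from the shared stretch cannot be told apart without strand.

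*Socs3* (ENSMUSG00000053113, chromosome 11, 117966079 to 117970047), a short gene of 2 exons, was covered by 2076, 2921 and 2124 exon reads. The RPKM was 27.4 (26.2 to 28.6) in N, 42.0 (40.5 to 43.6) in αA and 32.7 (31.3 to 34.1) in PαA. The highest level was in αA and PαA stood between it and N, with none of the intervals overlapping. At least 99.6% of the exon reads of each of the 5 genes were unique in each library.

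**Figure D1:**
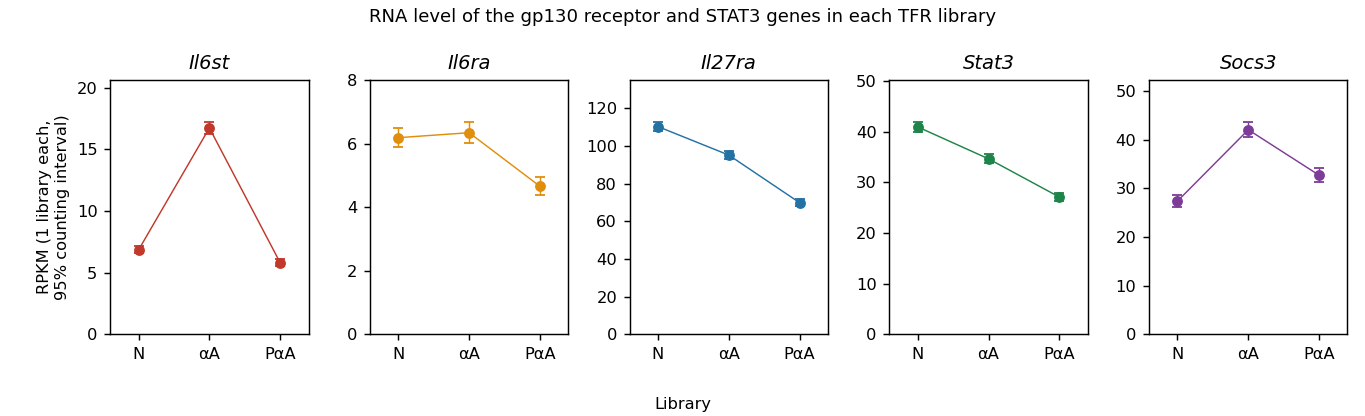
RPKM (y axis, linear from 0, a scale of its own for each gene) of *Il6st*, *Il6ra*, *Il27ra*, *Stat3* and *Socs3* in the N, αA and PαA libraries (x axis). Points are single libraries, bars are 95% Poisson intervals and the joining lines are a guide only; *Il6st* (16.7) and *Socs3* (42.0) peak in αA, while *Il27ra* and *Stat3* step down from N to PαA.

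Ranked by RPKM, *Il27ra* came first, *Il6st* next to last and *Il6ra* last in every library. *Stat3* stood above *Socs3* in N, and *Socs3* above *Stat3* in αA and PαA. Ratios formed inside a library do not depend on how libraries are scaled. *Il6st* over *Il6ra* was 1.11 (1.04 to 1.18) in N, 2.64 (2.49 to 2.80) in αA and 1.25 (1.15 to 1.35) in PαA. The shared chain was therefore close to level with the interleukin-6 binding chain in N and PαA and well above it in αA. *Il6st* over *Il27ra* was 0.0620, 0.176 and 0.0830 in the same order. *Socs3* over *Stat3* was 0.668 (0.636 to 0.702) in N, 1.21 (1.16 to 1.27) in αA and 1.21 (1.14 to 1.27) in PαA. On exon reads the inhibitor-to-factor ratio was thus higher in both libraries with the Nfatc1caaA label. It did not differ between them beyond counting error, with a log2 difference of -0.01 (-0.11 to 0.09). This did not hold on junction reads, where PαA against αA was 0.45 (-0.04 to 0.94) for *Socs3* and -0.53 (-0.63 to -0.42) for *Stat3*. *Il6ra* over *Il27ra* was 0.0561 in N, 0.0666 in αA and 0.0666 in PαA.

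For αA against N, the comparison of the label of NFATc1/αA overexpression with that of NFATc1 deficiency, *Il6st* had a log2 ratio of 1.29 (1.22 to 1.36), higher than in 99.1% of the expressed genes. It was the only 1 of the 5 genes past 2-fold, the threshold the study used, and no member was past it downwards. Of all expressed genes, 1.44% were past 2-fold higher and 2.81% past 2-fold lower. *Socs3* had a log2 ratio of 0.62 (0.54 to 0.70), at percentile 97.1, and *Il6ra* one of 0.04 (-0.07 to 0.14). *Il27ra* at -0.21 (-0.26 to -0.17) and *Stat3* at -0.24 (-0.29 to -0.19) lay close to the median of all expressed genes, -0.14. The median log2 ratio of the 5 genes was 0.04.

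For PαA against αA, which adds the Blimp-1-deficient label, all 5 genes had a ratio below 0. *Il6st* at -1.53 (-1.61 to -1.45) was the only 1 past 2-fold, at percentile 0.656 of the expressed genes, of which 2.45% were past 2-fold lower and 2.18% past 2-fold higher. *Il6ra* at -0.45 (-0.56 to -0.33), *Il27ra* at -0.45 (-0.50 to -0.39), *Socs3* at -0.36 (-0.44 to -0.28) and *Stat3* at -0.35 (-0.41 to -0.30) formed a close group between percentiles 15.1 and 21.0. The median of the 5 genes was -0.45 and that of all expressed genes -0.06. Both comparisons use the αA library, so a level particular to it would move them in opposite directions, and the *Il6st* values cannot be told apart from that.

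**Figure D2:**
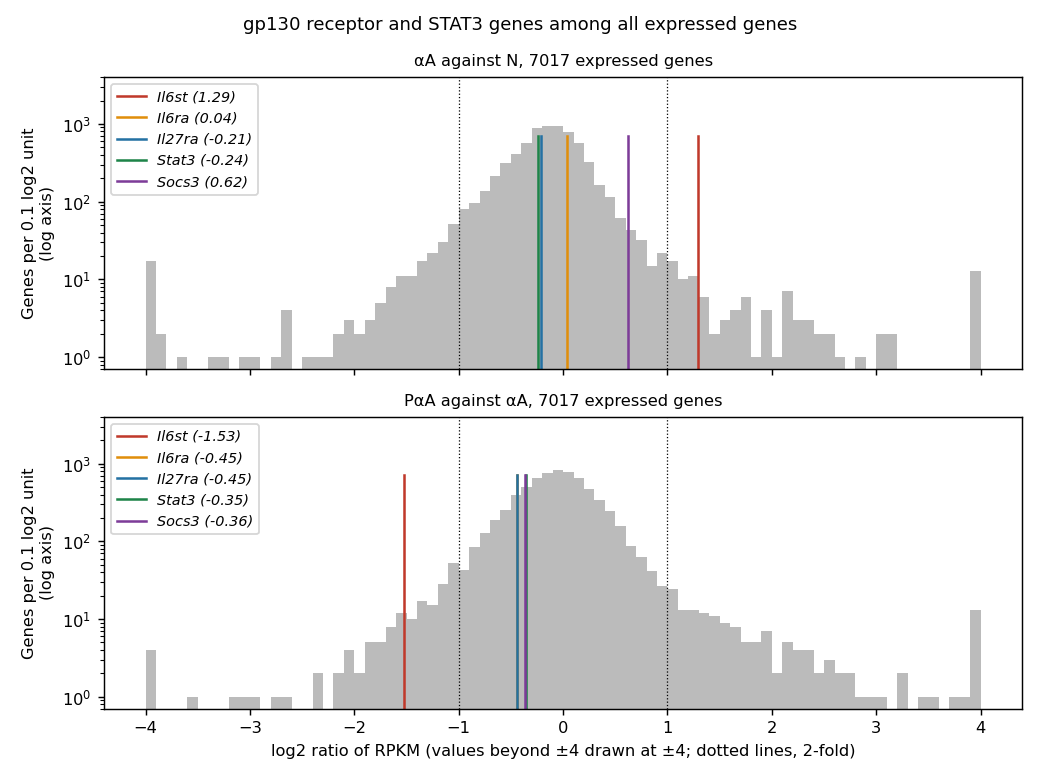
Histograms of the log2 RPKM ratio (x axis, values beyond 4 either way drawn at the edge) of 7017 expressed genes, in bins of 0.1 with gene number on a log y axis, for αA against N (top) and PαA against αA (bottom). Coloured lines mark the 5 genes; *Il6st* lies at 1.29 and -1.53, outside the dotted 2-fold lines in both, and in the lower panel the *Il6ra* and *Il27ra* lines coincide at -0.45.

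PαA was also set against N, a comparison the study did not form. None of the 5 genes was past 2-fold, against 2.57% of the expressed genes higher and 7.77% lower. These shares are 180 and 545 genes, which became 258 and 251 with TMM factors. *Il6st* had a log2 ratio of -0.24 (-0.33 to -0.15), close to the median of all expressed genes of -0.19. *Socs3* was higher in PαA by 0.26 (0.17 to 0.34), at percentile 83.4. *Il6ra* at -0.41 (-0.52 to -0.30), *Stat3* at -0.60 (-0.65 to -0.54) and *Il27ra* at -0.66 (-0.71 to -0.61) were lower.

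The scaling bears more on the small differences than on those of *Il6st* to αA. With TMM factors the median of all expressed genes moved from -0.14 to 0.02 for αA against N and from -0.06 to 0.01 for PαA against αA, and the genes past 2-fold turned from 101 higher and 197 lower to 134 and 112 for αA against N, and from 153 and 172 to 172 and 132 for PαA against αA. *Il6st* then stood at 1.45 and -1.46, and *Socs3* at 0.78 and -0.29. *Il27ra* and *Stat3* came to -0.05 and -0.08 for αA against N, and *Il6ra* to 0.20. For PαA against N, *Il6st* came to -0.01 with TMM factors and to 0.01 with median-of-ratios factors, which turns its sign.

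**Figure D3:**
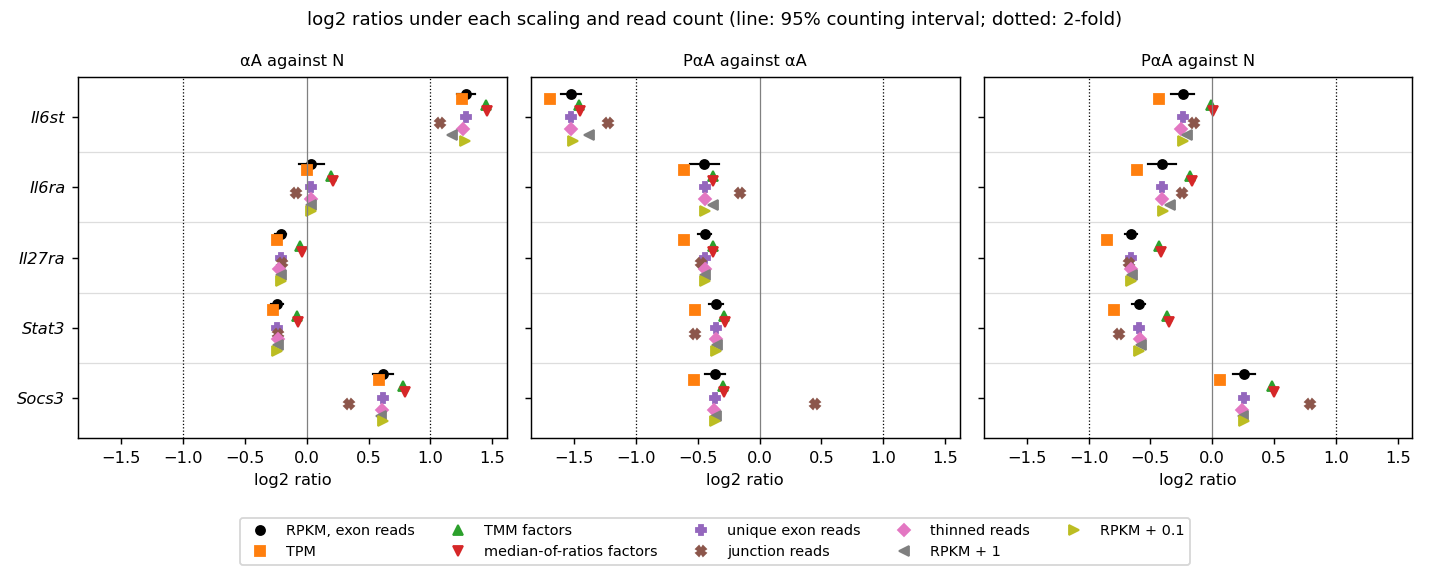
log2 ratios (x axis) of the 5 genes (rows) for the 3 comparisons (panels) under 9 settings, each with its own symbol; the black line is the 95% counting interval of the RPKM ratio and dotted lines mark 2-fold. *Il6st* stays beyond 2-fold in the left and middle panels under each setting, from 1.08 to 1.46 and from -1.69 to -1.22, while *Socs3* for PαA against αA turns to 0.45 with junction reads.

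Reads that cross exon-exon junctions and reads in introns give further readings of the same genes. For *Il6st* there were 315, 610 and 244 junction reads in N, αA and PαA, which gave a log2 ratio of 1.08 (0.88 to 1.28) for αA against N and -1.22 (-1.44 to -1.01) for PαA against αA. Both keep the direction of the exon reads. Junction reads were 13.9% (12.5 to 15.4) of the *Il6st* exon reads in N, 12.1% (11.2 to 13.0) in αA and 14.9% (13.2 to 16.7) in PαA. *Socs3*, with a single junction, had only 56, 65 and 83 junction reads. Its PαA ratio against αA was 0.45 (-0.04 to 0.94) on these, opposite in sign to its exon reads. For αA against N the *Socs3* junction ratio was 0.34 (-0.20 to 0.88), an interval that spans 0. *Stat3* had a junction share of 30.2% (29.2 to 31.3) in N, 30.4% (29.2 to 31.6) in αA and 27.0% (25.7 to 28.3) in PαA, so that PαA lay below the others, whereas *Il27ra* held between 29.3% and 29.8%. The *Il6ra* share was 9.06%, 8.31% and 10.1%, with overlapping intervals.

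Intron reads of *Il6st* numbered 14 in N, 55 in αA and 39 in PαA. The αA library was above N on these too, by a log2 ratio of 2.10 (1.23 to 3.06), but PαA was not separated from αA, at -0.40 (-1.03 to 0.22), and stood above N by 1.70 (0.79 to 2.70). As a share of the gene's exon and intron reads they were 0.616%, 1.08% and 2.32%. *Il27ra* had 31, 34 and 74 intron reads, and PαA stood above αA by 1.22 (0.61 to 1.85) on these while its exon reads were lower. *Il6ra* had 65, 96 and 81 intron reads, *Stat3* 182, 159 and 173, and *Socs3* 34, 24 and 31. Over all genes the intron share of gene reads was 3.01% in N, 4.56% in αA and 3.29% in PαA. Its part in the differences of intron reads was not tested.

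**Figure D4:**
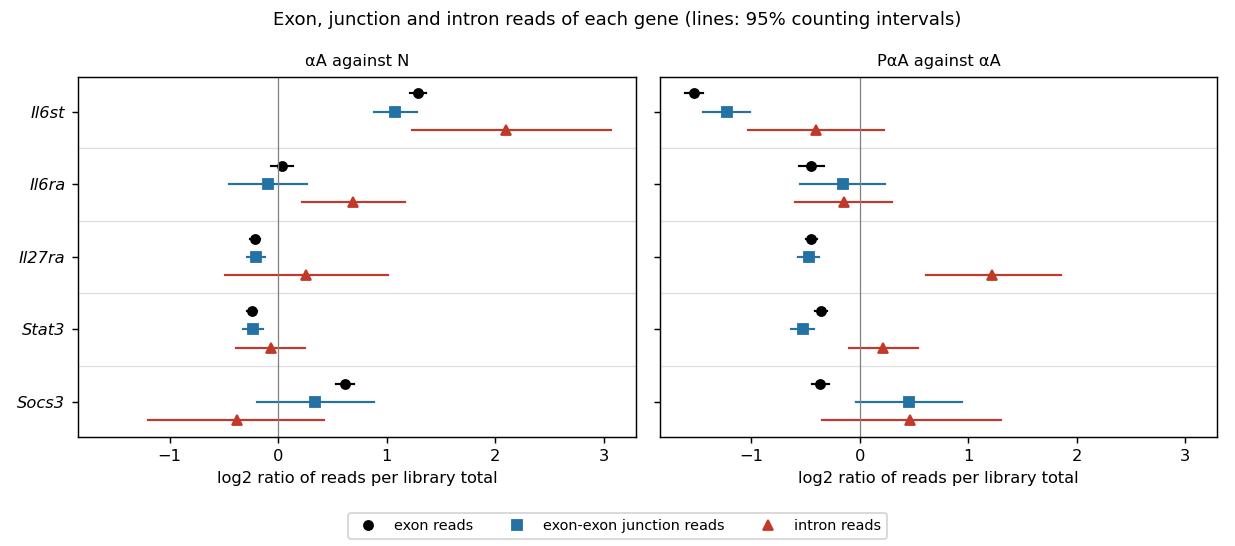
log2 ratio of reads per library total (x axis) from exon reads (circles), junction reads (squares) and intron reads (triangles) of the 5 genes (rows), with 95% counting intervals, for αA against N (left) and PαA against αA (right). For *Il6st* all 3 kinds lie above 0 on the left; on the right its exon and junction reads lie below 0 and the intron interval spans 0, and the *Il27ra* intron reads stand at 1.22.

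The rest of the pathway was followed in lists of ligands, receptor chains, kinases, inhibitors, proteases and STAT3 target genes, with 62 genes beside the 5, of which 40 were expressed. For αA against N, 2 of these 40 were past 2-fold higher (*Il23r*, *Il10*) and 2 lower (*Jak2*, *Il17a*), beside 1.44% and 2.81% of all expressed genes, and their median log2 ratio was -0.25, beside -0.14 over all expressed genes. With TMM factors the 2 higher genes stayed, *Jak2* came to -0.86, inside 2-fold, and the median to -0.09, beside 0.02. *Il17a* was still past 2-fold at -1.46 with TMM factors, but its highest level no longer passed the threshold of expression. *Il23r*, at 0.730 RPKM in N and 2.08 in αA, passed that threshold only through PαA, at 6.04, which αA against N does not use. For PαA against αA, 1 was higher (*Il23r*) and 3 were lower (*Ahr*, *Il17a*, *Il10*), beside 2.18% and 2.45% of all expressed genes. The median was -0.28, beside -0.06. *Il17a*, at 1.72 RPKM in αA and 0.838 in PαA, passed the threshold of expression only through N, at 5.29. For PαA against N, 2 were higher, *Il23r* among them, and 7 lower (*Jak2*, *Adam17*, *Bcl3*, *Hif1a*, *Maf*, *Ahr*, *Il17a*), beside 2.57% and 7.77%, with a median of -0.49, beside -0.19.

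Of 11 ligand genes of the family, only *Ebi3*, which encodes a subunit of interleukin-27 and interleukin-35, was expressed, at 50.4 RPKM in N, 27.9 in αA and 29.1 in PαA. The genes of its partner subunits, *Il27* and *Il12a*, had 0 reads in all 3 libraries, which allows up to 0.115 and 0.0860 RPKM in PαA, the library with the highest limit of 3 reads. *Il6* had 9, 10 and 21 exon reads, and *Lif*, the leukaemia inhibitory factor, 56, 40 and 136. *Osm* had 244, 266 and 286 exon reads and *Clcf1* 258, 242 and 194. These genes were not absent but lay just below the RPKM threshold of 5. *Osm* was highest in PαA at 4.94 RPKM, with an upper interval limit of 5.55. *Clcf1* was highest in αA at 4.57 RPKM, with an upper limit of 5.18. On TPM these values were 8.95 and 9.27, above 5. *Ctf1* had 0 reads in all 3 libraries, *Cntf* 4 in N and 0 in the others, and *Il11* 12 in N, 0 in αA and 15 in PαA.

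Of 8 receptor chains of the family, 3 were expressed, and these were *Il6st*, *Il6ra* and *Il27ra*. The chains that pair with gp130 for other ligands had few reads, with 8, 14 and 4 exon reads of *Lifr*, 10, 0 and 7 of *Osmr*, 0, 5 and 0 of *Cntfr* and 40, 33 and 36 of *Il11ra1*. *Il12rb2*, a relative of *Il6st*, had 112, 106 and 62 exon reads. Partners for interleukin-6 and interleukin-27 were thus the only ones of this list read at an RPKM above 5.

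Of 9 other receptors that act through STAT3, 5 were expressed. *Il21r*, the receptor chain for interleukin-21, read 58.2 RPKM in N, 69.7 in αA and 36.8 in PαA, again highest in αA, with log2 ratios of 0.26 (0.21 to 0.31) for αA against N and -0.92 (-0.98 to -0.86) for PαA against αA. *Il10ra*, the binding chain for interleukin-10, read 37.1, 30.3 and 30.3 RPKM. *Il23r* was the lowest of the 5, with 0.730, 2.08 and 6.04 RPKM from 54, 141 and 383 exon reads, and was higher in αA than in N by 1.51 (1.05 to 1.99) and higher in PαA than in αA by 1.54 (1.26 to 1.83). *Il10rb* and *Il12rb1* were not past 2-fold in any comparison.

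The kinases and STATs showed none of the αA excess of *Il6st*. All 5 genes of this list, *Stat3* included, had ratios below 0 in both comparisons. With TMM factors *Tyk2* came to 0.07 for αA against N. The medians of all expressed genes were below 0 too, at -0.14 and -0.06, beside -0.50 and -0.38 for this list. *Tyk2*, at -0.09 for αA against N, lay above the median of all expressed genes. *Jak2* read 34.3 RPKM (33.3 to 35.2) in N, 16.9 (16.2 to 17.6) in αA and 9.24 (8.72 to 9.78) in PαA, and its αA ratio against N of -1.02 (-1.09 to -0.95) was just past 2-fold and came to -0.86 with TMM factors. *Jak1* read 111, 78.5 and 70.9 RPKM and *Tyk2* 17.8, 16.6 and 12.4.

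The 10 inhibitors and phosphatases, *Socs3* among them, were all expressed. None was past 2-fold in αA against N or in PαA against αA, beside 4.25% and 4.63% of all expressed genes. *Socs1*, a kinase inhibitor of the same family, had another order than *Socs3*, with 35.3 RPKM (33.4 to 37.3) in N, 30.7 (28.8 to 32.6) in αA and 55.3 (52.7 to 58.0) in PαA. Its log2 ratio was -0.20 (-0.32 to -0.08) for αA against N and 0.85 (0.74 to 0.96) for PαA against αA. *Adam10* and *Adam17*, proteases that shed receptor ectodomains, had ratios of -0.30 and -0.66 for αA against N and -0.51 and -0.37 for PαA against αA.

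Of 24 textbook STAT3 target genes, *Socs3* and *Il6ra* included, 21 were expressed. For αA against N, 1 was past 2-fold higher, *Il10*, and 1 lower, *Il17a*, beside 1.44% and 2.81% of all expressed genes. Ratios were above 0 for 7 and below 0 for 14 (10 and 11 with TMM factors). Their median was -0.20, beside -0.14 over all expressed genes. *Il10*, a suppressive cytokine, read 22.1 RPKM in N, 69.4 in αA and 17.4 in PαA, the order of *Il6st*. For PαA against αA, *Il10* at -1.99 (-2.13 to -1.86), *Ahr* at -1.08 (-1.25 to -0.91) and *Il17a* at -1.04 (-1.78 to -0.33) were past 2-fold lower, beside 2.45% of all expressed genes. None was past 2-fold higher, beside 2.18%, and the median was -0.34, beside -0.06. *Ahr* encodes the aryl hydrocarbon receptor, and *Il17a*, a cytokine of helper cells, had 184, 55 and 25 exon reads. *Il17a* passed the threshold of expression only in N, which PαA against αA does not use. *Il17a* came to -0.97 with TMM factors.

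Several target genes that encode transcription regulators were lower in PαA than in N. Of the 21 expressed target genes, 5 were past 2-fold lower and 1 higher, beside 7.77% and 2.57% of all expressed genes. *Maf*, a factor upstream of *Il10* and *Il21*, read 105, 84.5 and 43.3 RPKM, and its PαA ratio against N was -1.28. *Bcl3*, *Hif1a* and *Ahr* were lower in PαA than in N by log2 ratios of -1.14, -1.11 and -1.46. Only 40.1%, 37.5% and 36.7% of the *Hif1a* exon reads were unique in N, αA and PαA. The fold against N of *Adam17*, at -1.03, came to -0.80 with TMM factors, and those of *Bcl3* and *Hif1a* to -0.91 and -0.88.

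**Figure D5:**
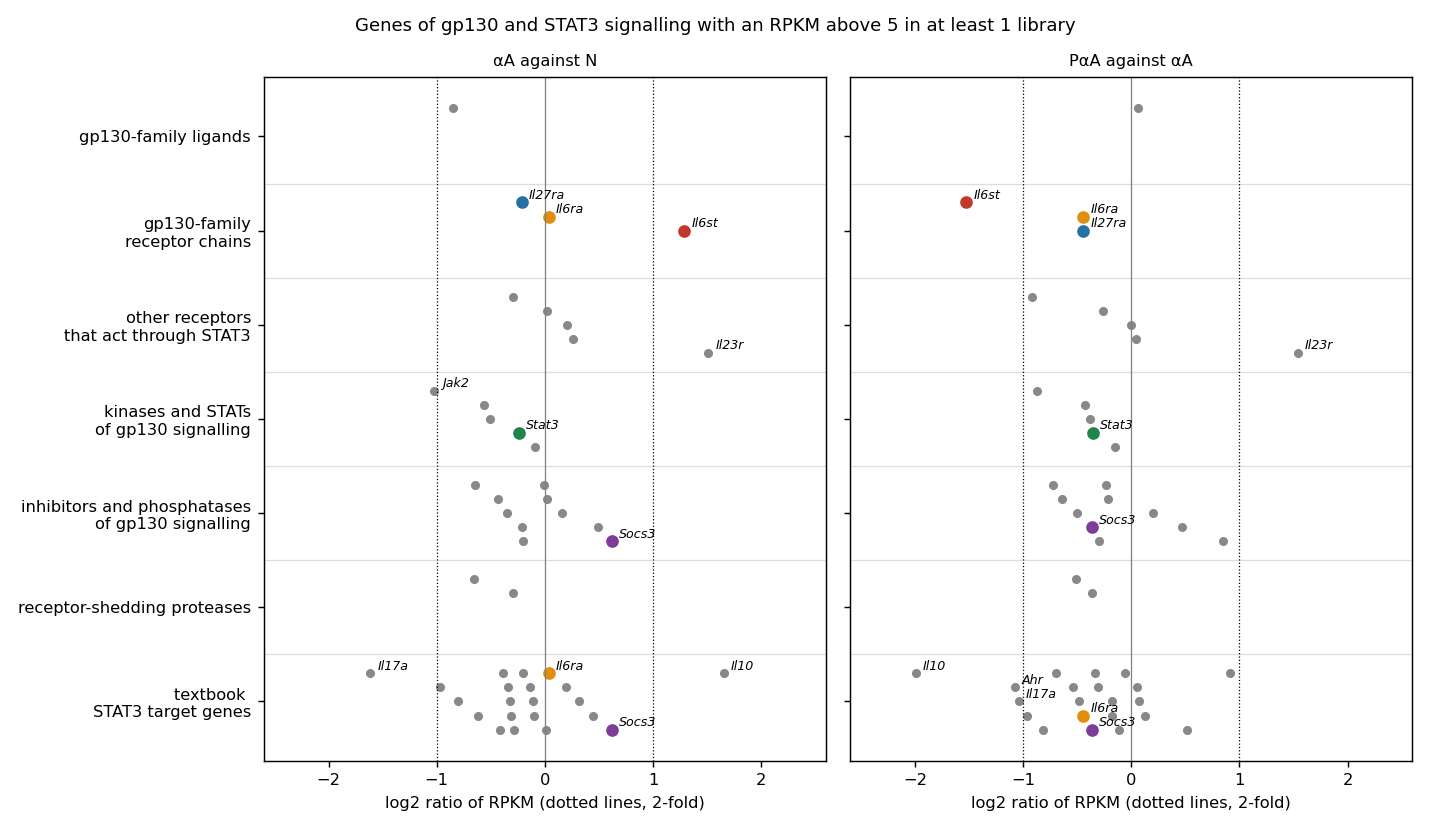
log2 RPKM ratio (x axis, dotted lines at 2-fold) of the expressed genes of each pathway list (rows) for αA against N (left) and PαA against αA (right); each dot is 1 gene, the vertical offset inside a row has no meaning, and the 5 genes are coloured, *Socs3* and *Il6ra* in 2 rows each. *Il6st* (1.29 and -1.53) lies outside the 2-fold lines in the receptor row, and the kinase row lies below 0 in both panels.

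For each gene the 3 most alike in the pair of ratios αA against N and PαA against αA were taken by smallest Euclidean distance among 5944 well-counted genes, as a description. For *Il6st* these were *Igsf23* (distance 0.043; 6.85, 16.3 and 5.66 RPKM in N, αA and PαA), *Mmp9* (0.098; 4.57, 11.4 and 3.72 RPKM), a gelatinase, and *Il1rn* (0.14; 2.41, 5.45 and 1.78 RPKM), the interleukin-1 receptor antagonist. For *Socs3* they were *Mboat1*, *Commd5* and *A430005L14Rik*, at distances of 0.038 to 0.062. *Il6ra* lay nearest to *Acbd3*, *Ezh2* and *Zmym5*, *Il27ra* to *Trim14*, *Lims1* and *Nfatc2*, and *Stat3* to *Nckap1l*, *Rtf1* and *Xpnpep1*, with distances of at most 0.029. The distances were larger for *Il6st* and *Socs3*, whose ratios lay where few genes did.

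Markers of other cells differed between the libraries too. The 7 naive-like lymphocyte markers, all expressed and with *Klf2*, *S1pr1*, *Il7r* and *Ccr7* among them, summed to 400 RPKM in N, 489 in αA and 871 in PαA, opposite in direction to *Stat3* and *Il27ra*. The 4 plasma cell markers summed to 49.2, 67.1 and 108 RPKM, with 3 expressed and *Tnfrsf17* at 0 reads in PαA. The 7 myeloid markers measured, 6 of them expressed, summed to 269, 173 and 246 RPKM, most of it *Lyz2* at 214, 134 and 184, and *S100a9* was at 0 reads in αA. The sum was lowest in αA, where *Il6st* was highest, but the myeloid markers did not share 1 order. *Csf1r* at 6.25, 10.6 and 6.62 RPKM and *Adgre1* at 2.30, 5.32 and 4.93 were highest in αA, as *Il6st* was, and *Fcer1g* at 16.9, 21.0 and 26.9 was highest in PαA. The 6 B cell markers summed to 16.0, 12.9 and 14.6 RPKM, with 1 expressed, the 4 CD8 T and NK cell markers to 12.4, 18.7 and 14.3, with 2 expressed, and the 5 dendritic cell markers to 1.97, 1.67 and 3.23, with none expressed and *Clec9a* at 0 reads in PαA. Ribosomal protein genes made up 13.6%, 15.4% and 19.8% of all exon reads in the N, αA and PαA libraries. The part of these markers and shares in the results was not tested, and in sorted cells read in bulk, fewer cells of a type and less RNA per cell cannot be told apart.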

How the data were processed

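TFR cells of 3 genotypes were profiled with 1 library each. The study prepared poly(A) libraries with NEBNext Ultra II and 15 PCR cycles, without molecular identifiers, and sequenced single reads of 59 bases. The authors trimmed adapters, aligned to GRCm38 and counted with default settings in CLC Genomics Workbench 12. The annotation release and strandedness are not given in the sources used here. Per the file headers the deposited values are whole-number counts of exon, unique exon, junction and intron reads, with RPKM and TPM that the authors derived from the exon counts. The 3715 genes with an exon length of 0 were not used.

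The library totals behind RPKM were recovered from counts, lengths and RPKM. Ratios have exact Clopper-Pearson intervals, RPKM exact Poisson intervals and shares exact binomial intervals, at 95%, and 3 reads were taken as the limit of detection. PCR copies make these counting errors only. The rule for expression and fold was that of the study, an RPKM above 5 in at least 1 library and a ratio past 2-fold, with its expression value read as RPKM. This reading is a choice, since the deposited column of that name holds the exon read counts, and the number of expressed genes and all shares of them rest on it. Genes named are the 5 genes, pathway genes past 2-fold, *Jak1*, *Jak2*, *Tyk2*, *Socs1*, *Il21r* and *Il10ra*, the targeted genes, and the 3 nearest genes with at least 100 exon reads, 80% of them unique. Other pathway and marker genes were named after their values were seen. Some genes of the lists are counted and not reported here by name. The 5 genes and the lists were chosen with earlier results of these data known. Intervals were computed with scipy 1.17.1 in Python 3.11.15, and TMM factors came from edgeR 4.0.16 in R 4.3.3. The rule for calls, the intervals of ratios and the search for nearest genes were tested on simulated data. The TMM factors and the intervals of RPKM and of shares were not. Alternatives were TPM, TMM or median-of-ratios scaling, unique or junction reads, reads thinned to the smallest library, pseudocounts of 1 and 0.1, an RPKM above 1, no filter, and 1.5-fold.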

Additional observations from a re-analysis of the deposited data

How the results depend on the processing

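The *Il6st* ratio kept its direction and stayed past 2-fold under all 8 alternatives to the ratios, from 1.08 (junction reads) to 1.46 (median-of-ratios factors) for αA against N and from -1.69 (TPM) to -1.22 (junction reads) for PαA against αA. At 1.5-fold, 2 of the 5 genes passed for αA against N and 2 for PαA against N, in place of 1 and 0. The median log2 ratio of the 5 genes for αA against N, 0.04, became 0.20 with TMM factors, 0.21 with median-of-ratios factors and -0.0897 with junction reads, and that for PαA against αA, -0.45, became -0.61 with TPM, -0.38 with TMM factors, -0.37 with median-of-ratios factors and -0.38 with a pseudocount of 1. Of the other pathway genes, 4 passed 2-fold for αA against N; the number was 2 with TMM factors, median-of-ratios factors or a pseudocount of 1, 7 with junction reads, 10 at 1.5-fold and 12 with no filter. For PαA against αA it went from 4 to 2 with a pseudocount of 1, 7 with TPM, 9 with junction reads, 13 at 1.5-fold and 14 with no filter. Fewer reads per gene or a looser threshold is built into the last settings of each series, and the cause of the others was not tested. The signs of *Il6ra* for αA against N (-0.09) and *Socs3* for PαA against αA (0.45) turned with junction reads. *Socs3* for PαA against N came from 0.26 to 0.06 with TPM. No paired analysis was possible because each genotype has 1 library, and for the same reason no replicate could be left out. Depth limits the intron and junction readings, with 14 intron reads of *Il6st* in N and 56 junction reads of *Socs3*; between-animal variation is not measured, and no interval covers it.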
